A study of Mus musculus with 19 samples.

Results

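Meg3, Rian, Miat, Snhg11, Malat1 and Neat1 are long noncoding RNA genes with known names in the mouse, and they were looked for in the tables of 7 RNA-seq libraries from mouse primary somatosensory cortex (S1). The gene tables, which list 24130 Ensembl genes in all, hold 2 of the 6 by Ensembl identifier: Meg3 (ENSMUSG00000021268, chr12:110779211-110809936, build mm9) and Snhg11 (ENSMUSG00000044349, chr2:158201374-158211881). The tables list 7 transcripts of these 2 genes. The other 4 genes were matched to loci that the authors assembled de novo from the reads, and in the Miat locus the gene tables also hold an Ensembl gene with no name in the annotation used here. Those 4 matches were made after the files had been read, from the lengths and spacing of introns or from position, and they are described apart.

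The libraries came from C57BL/6J male mice of 56 days for which the labels name no transgene or treatment. The cortex was cut into 6 adjoining segments. By the labels, A was mostly layers 1 to 3, B mostly layer 4, C and D mostly layer 5, E mostly layer 6 and F mostly layer 6b. In the paper C is approximately the upper and D the lower part of layer 5. The paper did not expect the segments to match single layers precisely. Segment B has 2 libraries, B1 and B2, each from 4 littermates, and each other segment has 1 library from 8 pooled mice. A cut segment holds neurons, glia and vessels of several types, so fewer cells of a type and less RNA per cell cannot be told apart. A difference between mice can be seen only as that between B1 and B2, which are pools of 4 littermates each. It also holds any difference in preparation between these libraries, whose mean inserts were 239 and 193 nt.

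Meg3, Rian and Mirg lie in a row in the Dlk1-Dio3 domain of chromosome 12, an imprinted region in which these noncoding genes are expressed from the maternal chromosome and the protein-coding genes Dlk1, Rtl1 and Dio3 from the paternal one. Meg3 RNA stays largely in the nucleus, and Rian and Mirg are hosts of small nucleolar RNAs and microRNAs. Malat1 RNA gathers in nuclear speckles, where splicing factors are stored, Neat1 RNA is the scaffold of paraspeckles, Miat (also called Gomafu) is a nuclear RNA of neurons that binds splicing factors, and Snhg11 is a host gene of small nucleolar RNAs.

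RefSeq gives Meg3 a pair of start sites in build GRCm38.p6, and 2 of the 4 Meg3 transcripts listed here begin at or close to them. The 1498-nt transcript ENSMUST00000129245 begins a few bases after the first, at chr12:109541001. The 14548-nt transcript ENSMUST00000146701, which had the highest FPKM of the Meg3 transcripts in all 7 libraries, begins at the second. FPKM is the number of fragments of a transcript relative to its length and to the depth of the library. The windows from 250 bases before to 50 bases after each start (chr12:109540746-109541045 and chr12:109545148-109545447, plus strand) and that of Snhg11 (chr2:158375463-158375762, plus strand) are shown so that the starts can be compared, with every match to TGACGTCA, TATAAA or CCAAT on either strand in capitals.
Meg3 start 1: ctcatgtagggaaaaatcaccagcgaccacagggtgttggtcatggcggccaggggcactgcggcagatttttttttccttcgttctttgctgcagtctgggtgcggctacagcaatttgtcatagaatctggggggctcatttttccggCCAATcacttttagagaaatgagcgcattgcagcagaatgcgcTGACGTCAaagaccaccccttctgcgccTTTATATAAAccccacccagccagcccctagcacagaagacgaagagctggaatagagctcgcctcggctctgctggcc
Meg3 start 2: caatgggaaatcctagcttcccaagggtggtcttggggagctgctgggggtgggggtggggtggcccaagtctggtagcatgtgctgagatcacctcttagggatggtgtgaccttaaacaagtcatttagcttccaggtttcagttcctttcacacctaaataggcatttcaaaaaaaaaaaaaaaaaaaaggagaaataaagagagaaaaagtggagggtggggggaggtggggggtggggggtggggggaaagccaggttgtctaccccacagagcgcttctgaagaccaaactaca
Snhg11 start: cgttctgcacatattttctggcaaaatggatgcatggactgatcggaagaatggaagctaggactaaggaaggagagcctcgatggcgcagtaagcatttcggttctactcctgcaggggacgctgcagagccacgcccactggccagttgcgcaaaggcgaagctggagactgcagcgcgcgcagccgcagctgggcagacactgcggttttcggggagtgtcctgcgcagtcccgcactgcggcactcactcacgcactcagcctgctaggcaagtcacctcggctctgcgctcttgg

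The window of the first Meg3 start holds all 3 motifs: TGACGTCA (the same on both strands), CCAAT, and TATAAA on both strands in overlapping copies. The windows of the second Meg3 start and of Snhg11 hold none of these letters. Of 32851 RefSeq promoter windows of this length, 1.79% hold TGACGTCA, 13.6% TATAAA and 37.4% CCAAT on either strand.

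Meg3 was highest in A and lowest in F. Its level was 762 FPKM in A (deposited 95% interval 743 to 780), 223 and 390.2 in B1 and B2, 209.8 and 143 in C and D, and 138 and 123 in E and F (the last 121 to 126). The level in A stood above every other library by the deposited intervals, as it did for Snhg11 and for 14.4% of 13164 genes whose mean reached 1 FPKM. B2 stood between A and the rest. The level in segment B was 306 ± 119 FPKM (SD, n = 2), and B2 was 1.75-fold above B1. Of these genes, 12.3% had a difference between B1 and B2 as large as that of Meg3 on the log2 scale. By its mean of 284 FPKM over the 7 libraries, Meg3 ranked 103 of 24130 genes.

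Snhg11 was lower than Meg3 in each library and had the same highest and lowest segment. Its level was 157 FPKM in A (95% interval 150.3 to 163), 73.1 and 116 in B1 and B2, 74.3 and 58.4 in C and D, and 66.8 and 48.7 in E and F (the last 48.0 to 49.5). A was again the highest, with B2 next, while B1 and C could not be told apart. The level in segment B was 94.6 ± 30.4 FPKM (SD, n = 2), and B2 was 1.59-fold above B1, a difference met by 17.9% of the genes. Its mean of 84.9 FPKM ranked 582.

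**Figure D1:**
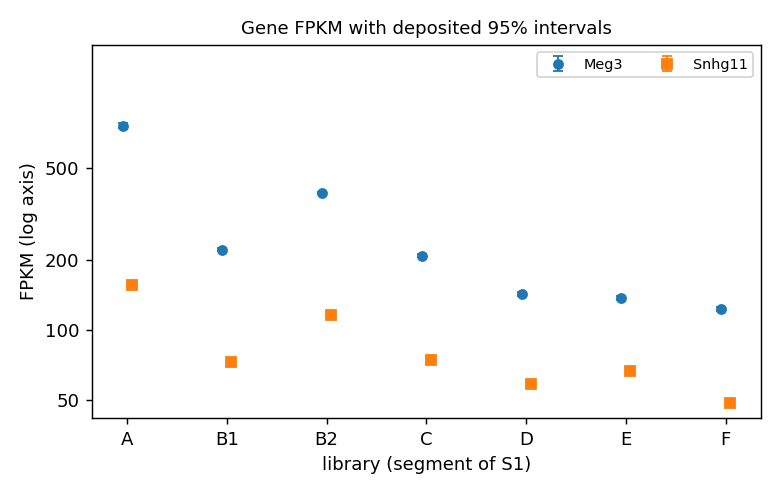
FPKM of Meg3 and Snhg11 (log axis) in the 7 libraries in order of depth from A to F, with the deposited 95% intervals as bars. Both are highest in A (762 and 157 FPKM), next highest in B2, and lowest in F (123 and 48.7 FPKM).

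Both genes fell from A to F. A linear and a quadratic term of segment position (A as 1 to F as 6) were fitted with limma to log2(FPKM + 0.1). The slope was -0.46 ± 0.067 per segment (SE) for Meg3, with a Benjamini-Hochberg adjusted p of 0.00595 by limma's moderated F-test of both terms over all genes tested. Direction is the sign of the linear term. For Snhg11 it was -0.28 ± 0.062, with an adjusted p of 0.0229 in limma. With the linear term alone the adjusted p in limma was 0.0205 for Meg3 and 0.0354 for Snhg11. The test was passed with a negative linear term by 1101 of the 13164 genes (8.36%) and with a positive one by 4648 (35.3%), 43.7% having passed in either direction, so the direction of both genes was the less common one. The fold between the highest and lowest segment was 6.18 for Meg3 and 3.22 for Snhg11. The log2 ratio of F to A was -2.63 for Meg3 and -1.68 for Snhg11, against a median of 0.51 over the genes tested. When the libraries were rescaled by the median of ratios, 1810 genes passed with a negative and 2504 with a positive linear term, and the slopes were -0.55 and -0.36.

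The call of both genes was lost without library A, while the slopes stayed negative. Without it the slope was -0.33 and the adjusted p in limma 0.0705 for Meg3, and -0.21 and 0.181 for Snhg11. Over all genes, 1686 were called in that fit. The call of Snhg11 was also lost without B2 (0.0505), without C (0.0535) and without D (0.058), and the slope kept its sign each time. With segment as a factor, which leaves only B1 against B2 as the spread, the adjusted p was 0.208 for Meg3 and 0.339 for Snhg11, and 52 genes in all passed.

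**Figure D2:**
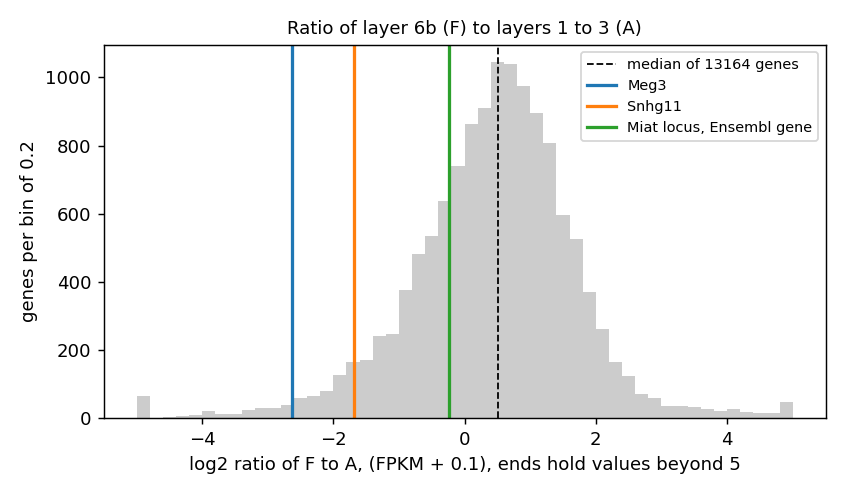
Histogram of the log2 ratio of F to A, (FPKM + 0.1), over the 13164 genes whose mean reached 1 FPKM, with lines at Meg3 (-2.63), Snhg11 (-1.68) and the Ensembl gene in the Miat locus (-0.23). The dashed line is the median of all these genes, at 0.51.

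The share of the summed gene FPKM that lay on genes of the mitochondrial genome was also highest in A and next highest in B2. It was 21.8% in A, 7.76% and 18.2% in B1 and B2, 9.79% and 9.58% in C and D, and 7.68% and 5.03% in E and F. The number of de novo loci listed had the same 2 libraries on top, with 257707 in A and 177155 in B2 against 93682 to 117022 in the rest. Rescaling FPKM to the sum without the mitochondrial genes left the slopes at -0.51 (Meg3) and -0.32 (Snhg11), with adjusted p of 0.0068 and 0.0196 in limma. The part of RNA quality or of the preparation of A and B2 in the fall was not tested. The fragments behind the FPKM, estimated from the deposited coverage and 2 ends of 50 nt, were 31.4 M (M, mega) in A and 41.8 to 75.2 M in the others. This is not the number of fragments sequenced. The mean insert was 164 nt in A and 172 to 239 nt in the others.

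The deposited 95% intervals of Meg3 did not overlap in 20 of the 21 pairs of libraries, D and E being the pair that did. For Snhg11 they did not overlap in 20 of 21 pairs, and B1 and C did. At least 20 pairs were without overlap in 8.04% of the genes tested. A stood above F by this criterion for both genes, as it did for 22.9% of the genes tested. B2 stood above B1 for both genes too, which held for 29.2% of the genes. The intervals cover the estimate within a library and no variation between mice.

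The levels of Meg3 and Snhg11 moved together over the 7 libraries. Pearson's r of log2(FPKM + 0.1) was 0.979 (2-sided exact permutation p = 0.000794) and Spearman's rho was 0.929 (exact permutation p = 0.00675), for the only pair of members matched by identifier. Without A and B2, the 2 libraries farthest from the median of Meg3, r over the remaining 5 was 0.851 (exact permutation p = 0.117) and no longer passed. A and B2 are also the libraries with the highest mitochondrial share. Leaving out the extremes of Meg3 narrows its range. The libraries share their mice, and B1 and B2 are the same segment.

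The genes whose pattern was most like that of Meg3 by Pearson's r over the 7 libraries were Tcf4, a transcription factor (r = 0.994), Med29, a subunit of the Mediator complex (0.994), and Mmrn2, an endothelial matrix protein (0.991). Tcf4 had 136 FPKM in A, 93.2 and 117 in B1 and B2, 95.2 and 84.3 in C and D, and 83.5 and 82.7 in E and F, a narrower range than Meg3. For Snhg11 the most alike were 4933439C10Rik (0.989), with 23.2 FPKM in A and 5.62 in F, and the unnamed genes ENSMUSG00000078946 (0.987) and ENSMUSG00000071860 (0.983).

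The tables did not list the same Meg3 transcripts in every library. ENSMUST00000146701 had 364 FPKM in A, 153 and 213 in B1 and B2, 114 and 79.7 in C and D, and 75.0 and 64.2 in E and F. ENSMUST00000129245 had 182 in A, 69.8 and 87.2 in B1 and B2, 47.8 and 33.8 in C and D, and 31.8 and 27.8 in E and F. Both of these had the order of the gene, with A on top. The 5971-nt transcript ENSMUST00000143272 had 89.5 FPKM in B2, 48.2 and 29.3 in C and D, and 31.1 and 31.2 in E and F, and was not listed in A or B1. The 893-nt transcript ENSMUST00000021696 was listed in A with 216 FPKM and in no other library. Each transcript in the tables had at least 5% of the level of the top transcript at its locus, so an unlisted transcript may have been left out by the authors' filter and was set to 0.

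As a share of the gene's FPKM, ENSMUST00000146701 made up 47.8% in A, 68.6% and 54.7% in B1 and B2, 54.3% and 55.8% in C and D, and 54.4% and 52.1% in E and F. ENSMUST00000129245 stayed between 22.4% and 31.4%. ENSMUST00000143272 made up 20.5% to 25.3% where it was listed, and ENSMUST00000021696 28.3% in A. The deposited fraction column was rescaled so that the transcripts of a gene made up the whole. How that column weighs transcripts was not checked. By it ENSMUST00000146701 made up 83.6% in A, 94.8% and 78.5% in B1 and B2, and 76.8% to 80.9% in C, D, E and F. A was thus not the lowest. ENSMUST00000129245 made up 10.4% in A and 4.37% to 5.84% elsewhere on that scale. The order of the libraries in these shares therefore depended on the column used. In FPKM, for each of the first 3 transcripts the shares in B1 and B2, which are the same segment, lay further apart than those in C, D, E and F did.

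FPKM divides by transcript length, and a library in which a short transcript is listed gains FPKM from few fragments. Multiplied back by length in kilobases and summed, the FPKM of Meg3 came to 5757 length-weighted units in A, 2327 and 3771 in B1 and B2, 2015 and 1384 in C and D, and 1324 and 1163 in E and F. The ratio of A to F was 4.95 on this scale and 6.18 in FPKM. For Snhg11 it was 2.62 against 3.22. Both genes still fell on this scale, with slopes of -0.44 and -0.24 and adjusted p of 0.00479 and 0.0298 in limma.

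**Figure D3:**
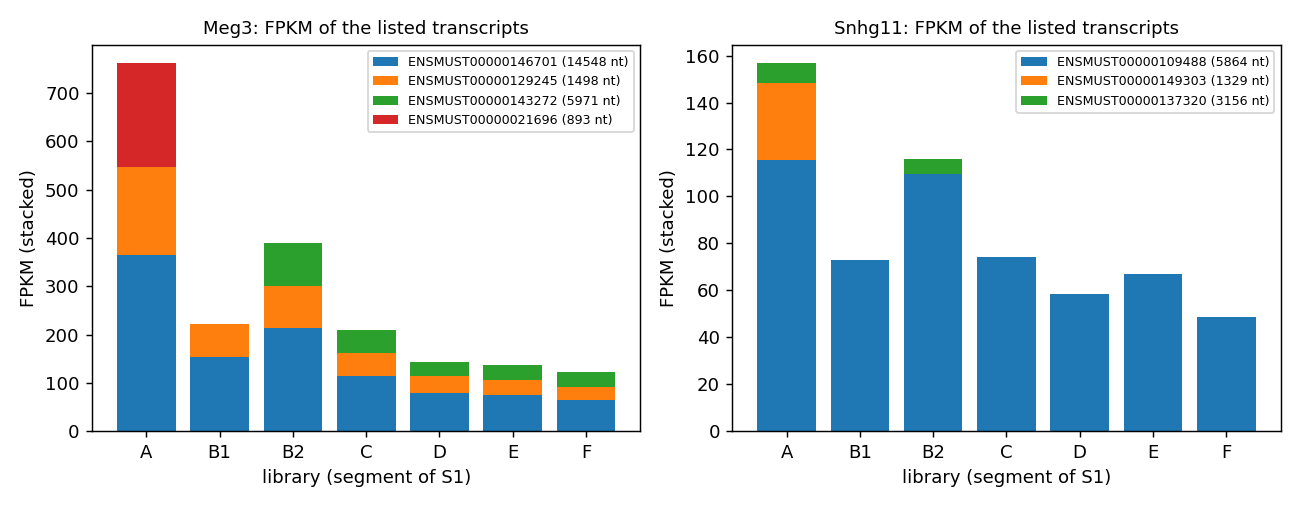
FPKM of the listed transcripts of Meg3 (left) and Snhg11 (right) in the 7 libraries, stacked to the gene's FPKM. ENSMUST00000021696 of Meg3 (216 FPKM) and ENSMUST00000149303 of Snhg11 (32.5 FPKM) appear in A alone, and ENSMUST00000143272 of Meg3 is missing in A and B1.

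For Snhg11, the 5864-nt transcript ENSMUST00000109488 was the whole of the listed FPKM in B1, C, D, E and F, 94.5% in B2 and 73.8% in A. It had 116 FPKM in A, 73.1 and 110 in B1 and B2, 74.3 and 58.4 in C and D, and 66.8 and 48.7 in E and F. The 3156-nt transcript ENSMUST00000137320 was listed in A (8.66 FPKM) and B2 (6.44). GENCODE M21 calls it a retained intron. The 1329-nt transcript ENSMUST00000149303 was listed in A alone, with 32.5 FPKM (95% interval 27.7 to 37.3). GENCODE M21 calls it a target of nonsense-mediated decay. It has an exon of 80 nt (chr2:158376745-158376824, GRCm38, plus strand) that ENSMUST00000109488 lacks, shown because no other library listed a transcript with it as a separate exon. The retained intron of ENSMUST00000137320 spans it.
Snhg11 exon: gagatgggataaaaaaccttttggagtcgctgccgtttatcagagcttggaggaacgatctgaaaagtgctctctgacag

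No transcript share passed limma's test of a trend along the segments, made on the log2 ratio of a transcript to the others of its gene. Of 18008 transcripts, 0 passed (0%) and 3954 had an unadjusted p under 0.05. The adjusted p of the Meg3 and Snhg11 transcripts lay between 0.199 (ENSMUST00000109488) and 0.945 (ENSMUST00000129245). The spread of these ratios was wide. On data simulated with that spread, with changes in a small part of the transcripts, this fit recovered none of them. That simulation does not give the power where many transcripts change. The count of 0 is not read as a lack of differences in shares.

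By the criterion of 1 transcript higher in the first and another higher in the second library, with 95% intervals that do not overlap, Meg3 met it in 9 of 21 pairs and Snhg11 in 0. At least 9 pairs met it in 33.1% of the 6713 genes with at least 2 transcripts. The 9 pairs of Meg3 set A against B2, C, D, E or F, or B1 against C, D, E or F. The transcript on the other side was ENSMUST00000143272 in each, which A and B1 do not list. Between the replicates B1 and B2 the criterion was met by 37.4% of these genes, and between A and F by 43.5%.

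On a list of genes in or near the Dlk1-Dio3 domain, 8 of 10 were in the tables and 6 were tested, Meg3 included. Meg3 and Rtl1, a retrotransposon-derived gene, fell (8.36% of all genes tested did), 0 rose (35.3%), and the median log2 ratio of F to A was -0.40, against 0.51 over all genes tested. Rtl1 had 1.88 FPKM in A, 1.19 and 1.49 in B1 and B2, 0.911 and 0.853 in C and D, and 0.741 and 0.830 in E and F. Its slope was -0.22 ± 0.040 (SE), with an adjusted p of 0.00964 in limma. Without A the adjusted p of Rtl1 was 0.0736. The mean of Rtl1 was 1.13 FPKM, close to the minimum of 1 for the test. Rtl1 was below 1 FPKM in C, D, E and F and reached the minimum only through A, B1 and B2. Its call is therefore no support for a pattern of the domain. In A its whole level lay on a listed transcript that had 0 FPKM elsewhere. In the other libraries it lay on another of the same length and ends. The 2 other Ensembl genes that overlap Rtl1 summed to 4.94 FPKM in A and 0 to 1.56 elsewhere. Rtl1 lies opposite to noncoding RNA of the maternal chromosome, and without strand in the libraries the reads of both cannot be told apart. The highest ratio on the list was that of Ppp2r5c, a subunit of a phosphatase (0.83, adjusted p in limma 0.0647). The 4 tested genes that were not called, Ppp2r5c among them, are not among the domain genes named above. The median of the list is therefore not one of the domain alone.

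De novo loci with the introns of Rian and Mirg lay further along the same chromosome. The first Rian locus (chr12:110842127-110884959, mm9) matched 11 introns of Rian in length and spacing. It had 84.6 FPKM in A (95% interval 79.0 to 90.3), 31.7 and 52.2 in B1 and B2, 36.4 and 23.9 in C and D, and 34.1 and 28.0 in E and F. A was highest, above each other library by the intervals, and B2 was next, as for Meg3. The Mirg locus (chr12:110971970-110987665), with 5 matched introns, had 63.4 FPKM in A (56.8 to 70.4), 17.4 and 25.2 in B1 and B2, 17.3 and 11.2 in C and D, and 15.2 and 12.6 in E and F. In FPKM times length A was also highest, but the margin of Mirg was narrower. Mirg had 52.5 in A, 38.6 in B2 and 12.8 in F on that scale, and the first Rian locus 158, 116 and 39.2. By the intervals in FPKM, A stood above all other libraries in Mirg too. So it did in 31% of the 44821 de novo loci whose mean reached 1 FPKM, and A stood above F in 51.9% of them. The summed FPKM of all de novo loci was 921220 in A and 465150 to 573510 elsewhere.

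The other 2 loci with Rian introns did not have this order. The second (chr12:110887366-110890638, 2 matched introns) had 13.2 FPKM in A, 16.6 and 22.1 in B1 and B2, 20.6 and 23.1 in C and D, and 23.8 and 14.6 in E and F. In it A was the lowest, though its interval overlapped those of B1 and F. The third (chr12:110892373-110900183, 6 matched introns) had 30.1 to 74.9 FPKM with intervals that reached 0 in 5 libraries, and 1 of 21 pairs did not overlap. It was highest in D in FPKM, but in A in FPKM times length (49.3, against 44.3 in D). A level for the whole of Rian therefore cannot be given from these loci.

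The de novo loci of Meg3 and Snhg11 were set beside the gene tables. They come from the same reads of the same libraries and are no independent check. The Meg3 locus had 781 FPKM in A and 113 in F, and the Snhg11 locus 138 in A and 38.3 in F. The order of A, B2 and the rest was that of the Ensembl genes. The Snhg11 locus was overlapped by 4 other de novo loci, with a summed level above its own in each library. That sum was highest in B2 (150.3 FPKM), with 144 in A and 57.5 in F. The Meg3 locus was overlapped by 1 other, with 169 FPKM in A and 22.0 to 61.9 elsewhere. The first Rian locus was overlapped by 9, with a summed 31.1 FPKM in A and 4.83 to 12.1 elsewhere. The libraries carry no strand, so overlapping loci may share reads.

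Malat1 had the highest level of the genes described. Its locus (chr19:5796048-5802765, mm9) was matched by position, since it has no intron. In the 500000 bases to each side, 36 of 62 Ensembl genes had the same start or end to the base in both annotations. It had 1201 FPKM in A (95% interval 1175 to 1227), 600.0 and 1177 in B1 and B2, 820.1 and 549 in C and D, and 603 and 586 in E and F. A and B2 overlapped, and B2 was 1.96-fold above B1, so the replicates of segment B spanned most of the range of the segments. A difference between B1 and B2 as large as this was met by 49.9% of the de novo loci. Another de novo locus overlapped it, with 29.3 to 204 FPKM. The mature 3' end of Malat1 is not a usual poly(A) tail, and the libraries were made from polyadenylated RNA.

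The Miat locus had a narrower range than Meg3 and Snhg11. The de novo locus (chr5:112642245-112657939, 8 introns matched) had 10.1 FPKM in A, 15.2 and 10.2 in B1 and B2, 10.3 and 7.46 in C and D, and 10.3 and 8.56 in E and F. An Ensembl gene with no name in the annotation used here, ENSMUSG00000086878 (chr5:112647222-112657955), lies in it and had 10.5 FPKM in A, 14.4 and 11.5 in B1 and B2, 10.8 and 8.02 in C and D, and 9.88 and 8.98 in E and F. B1 was the highest and D the lowest in both. The slope of the Ensembl gene was -0.093 ± 0.056, with an adjusted p of 0.382 in limma. The fold between the highest and lowest segment of the Ensembl gene was 1.61. Its deposited intervals did not overlap in 18 of 21 pairs, and those of the de novo locus in 8 of 21. On average over the 21 pairs, 59.9% of the genes tested had intervals that did not overlap. The share of genes with at least 18 such pairs was not computed, so the count of 18 is not read as unusual. In contrast to Meg3 and Snhg11, A was not the highest. A further 5 de novo loci overlapped the Miat locus, with a summed level of 150.5 FPKM in A and 8.58 in F.

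The Neat1 locus was highest in F. This locus (chr19:5842228-5845553, 2 introns matched) lies at the 5' end of the gene and covers 3251 of its 20771 bases. No de novo locus was matched to the rest, so no level can be given for RNA of the whole length. The matching took only loci listed on the strand of the gene, so a locus listed without strand could not be matched. The libraries were made from polyadenylated RNA. The locus had 8.96 FPKM in A, 5.27 and 8.60 in B1 and B2, 7.64 and 7.40 in C and D, and 10.7 and 35.1 in E and F (the last 95% interval 31.8 to 38.5). F stood above all other libraries, which held for 6.41% of the de novo loci, and 8 pairs of the others overlapped. The fold between F and segment B was 5.07. F stood above A by nonoverlapping intervals in 22.5% of the de novo loci. The summed level of 8 oligodendrocyte markers, all at 1 FPKM or more in every library, was also highest in F: 335 FPKM in A, 858 and 870.0 in B1 and B2, 1677 and 2250.3 in C and D, and 4180.2 and 12766 in E and F. This sum was also higher at each segment from A to E than at the one before, where Neat1 stayed between 5.27 and 10.7 FPKM. The 3 layer 6b markers in the tables summed to 215 FPKM in F, 39.4 in E and 3.43 to 10.2 elsewhere. The 3 oligodendrocyte precursor markers summed to 144 FPKM in F and 14.5 to 60.7 elsewhere, and the 4 striatum markers in the tables to 170.2 in F and 39.2 to 126 elsewhere. The 6 astrocyte markers summed to 611 in F and 434 to 561 elsewhere, and the 6 microglia markers to 106 in F and 59.4 to 102 elsewhere. The remaining sums of cell type and layer markers were highest in other libraries. The part of these cells in the level of Neat1 was not tested.

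**Figure D4:**
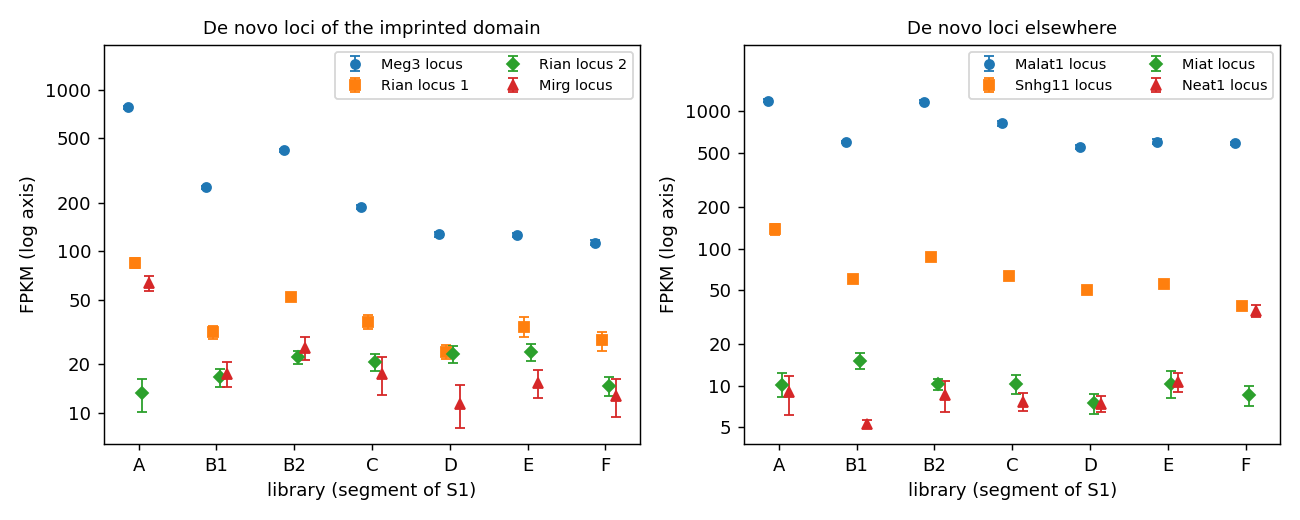
FPKM (log axis) of the de novo loci matched to Meg3, Rian (first and second locus) and Mirg (left) and to Malat1, Snhg11, Miat and Neat1 (right), with the deposited 95% intervals. Meg3, the first Rian locus and Mirg are highest in A, and Neat1 is highest in F at 35.1 FPKM.

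The trend was also fitted over the de novo loci. Of 44821 loci whose mean reached 1 FPKM, 0 passed (0%) and 15032 had an unadjusted p under 0.05 in limma, so no trend was called for any of the matched loci. On data simulated with the spread of these loci, with changes in a small part of them, this fit recovered none of the changes. That simulation does not give the power where many loci change. The count of 0 is not read as a lack of change in the loci. The adjusted p in limma was 0.0733 for Meg3, 0.186 for the first Rian locus, 0.125 for Mirg, 0.157 for Snhg11, 0.764 for Miat, 0.342 for Malat1 and 0.11 for Neat1. Many loci are listed at 0 in some libraries. A second fit, chosen after this result was seen, kept the 26674 loci above 0 in every library. In it 1663 passed with a negative linear term (6.23%), among them Meg3 (adjusted p 0.032 in limma), and 1001 with a positive one (3.75%), among them Neat1 (0.0483 in limma). Since the filter was chosen with the first result known, these 2 calls are given as values of that fit. The slope of Neat1 was 0.34 in the first fit and 0.080 in it without F (adjusted p 0.649 in limma).

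Among other known noncoding RNA genes, 17 of 38 were in the tables and 13 were tested. Of these 2 passed with a negative linear term (8.36% of all genes tested did) and 5 with a positive one (35.3%), and the median log2 ratio of F to A was -0.20, against 0.51 over all genes tested. Pantr1 and Snhg20 fell, with ratios of -2.15 and -1.34. Pantr1, next to the neuronal transcription factor gene Pou3f3, had 81.4 FPKM in A, 31.3 and 61.9 in B1 and B2, 34.6 and 31.6 in C and D, and 22.9 and 18.2 in E and F, with A and B2 on top as in Meg3. The 5 with a positive term were Firre (0.25), Snhg3 (0.60), Snhg17 (0.91), Gm11549 (1.07) and Tug1 (1.30). Of these, Snhg3, Gm11549 and Tug1 were highest in E (7.21, 22.3 and 15.05 FPKM) and lower in F (5.03, 17.9 and 13.4). Snhg17 was highest in F (1.70). Gm11549 had 8.50 FPKM in A and 22.05 in D. The paper predicted Gm11549 to be enriched in layer 5 and reported that its in situ hybridization was as predicted. Firre had 2.05 FPKM in A, 1.35 in C and 2.47 in F, a slope of 0.047 ± 0.039 (SE), and so no rise from A to F beyond its error. With the linear term alone Pantr1 and Snhg17 passed, and Snhg20, Firre, Snhg3, Gm11549 and Tug1 did not.

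Of 17 genes of nuclear speckle and splicing proteins, 2 passed with a negative linear term (8.36% of all genes) and 3 with a positive one (35.3%). The median ratio was 0.01, against 0.51 over all genes. The first were Rbfox3, a splicing factor of neurons (-1.66), and Srrm1, a splicing coactivator (-1.29). The others were Srsf6 (1.43), Srsf7 (1.62) and Qk (2.05), an RNA-binding protein abundant in oligodendrocytes. Srrm1 and Srsf6 did not pass with the linear term alone.

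Of 12 paraspeckle protein genes, 4 passed with a positive linear term and 0 with a negative one, close to the 35.3% of all genes with a positive one, and the median of 0.55 was close to the 0.51 of all genes. They were Pspc1 (1.61), Cpsf6 (1.60), Hnrnpa1 (1.16) and Tardbp (0.82). Of 7 polycomb genes, Ezh1 (1.01) and Suz12 (1.26) passed with a positive term and 0 with a negative one, again near the share of all genes, with a median of 0.86 and the lowest ratio in Eed (0.25). Cpsf6 and Suz12 did not pass with the linear term alone. Of 12 tested imprinted genes outside the domain, 8 passed with a positive term (35.3% of all genes did) and 0 with a negative one, with a median of 0.84 against 0.51. They were Nnat (0.35), Mest (0.69), Zdbf2 (0.84), Peg3 (0.85), Impact (1.45), Sgce (1.45), Usp29 (1.67) and Ndn (1.91), of which the first 4 did not pass with the linear term alone. Nnat had 33.7 FPKM in A, 5.40 in B2 and 43.2 in F. The lowest ratio was that of Cdkn1c (-0.23).

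The summed layer markers were highest in the segments labelled with their layers, but those of layers 5 and 6 were not confined to them. The summed level of 4 markers of layers 2 to 4 was 117 to 129 FPKM in A, B1 and B2 and 20.5 in F. That of the layer 5 markers was 62.2 and 61.6 in C and D, 46.4 and 45.3 in E and F, and 13.2 to 20.3 in A, B1 and B2. The layer 6 markers summed to 115 in E, 104 in F and 63.7 in D, with less in the others. The layer 6b markers summed to 215 in F and 3.43 to 39.4 elsewhere. The 7 pan-neuronal markers summed to 1488 FPKM in A and 2423 to 3190 in the others, so Meg3 and Snhg11 were highest where this sum was lowest. Not every marker in it went this way. Rbfox3, which is among them, had 337 FPKM in A and 107 to 263 elsewhere. The 5 excitatory neuron markers summed to 6059 FPKM in A, where they were highest, and to 2303 in F. The leptomeningeal markers summed to 30.2 FPKM in A and 4.10 to 6.83 elsewhere, and the endothelial ones to 68.0 in A and 35.0 to 47.5 elsewhere. Their part in the levels of A was not tested.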

How the data were processed

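The authors sequenced polyadenylated RNA without strand, as paired ends of 50 nt for most lanes, aligned it to mm9 with TopHat 1.0.13 and estimated levels with Cufflinks 0.8.3, once on Ensembl genes and once on transcripts assembled de novo. The deposited values are FPKM with 95% intervals, the deposited fraction of a transcript within its gene, the deposited coverage (signal) and a deposited score in the assembled models. No read counts were used, so no interval beyond the deposited one is given. The dorsal and lateral samples were not analysed here.

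Transcripts were assigned to genes by position or identifier, and 444 by an FPKM equal to that of a gene. A further 183 stayed unassigned. In 98.2% of values the transcript sum equalled the gene FPKM within 1%. For the 444 this agreement was the criterion of assignment. Trends were fitted with limma 3.58.1 in R 4.3.3 on log2(FPKM + 0.1) over genes whose mean reached 1 FPKM, with p adjusted by Benjamini-Hochberg and a threshold of 0.05. Shares were tested for transcripts with at least 5% of the FPKM of their gene over the 7 libraries together. Simulated data had the spread of the files and changes in a small part of the features. On them the gene fit recovered most large changes and few small ones, and the fits of shares and de novo loci recovered none. Named genes were the members, their transcripts past this minimum, the 3 most alike genes of each, and from each list the genes with the lowest and highest ratio of F to A and those that passed. The value of 1 gene that this rule names is not reported here. The members, lists and tests were chosen with earlier results of these data known. The matches of Rian, Miat, Malat1, Neat1 and Mirg to de novo loci, and ENSMUST00000137320, were named after the values were seen. Loci were matched by at least 2 introns of equal length and spacing in GENCODE M21, and Malat1 by position. Only loci listed on the strand of the gene were matched. Sequences are RefSeq windows of GRCm38.p6 and a GENCODE M21 exon, and no coordinate was converted between builds.

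The levels of segments other than B rest on 1 library, and p-values measure the scatter about a trend between libraries.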

Additional observations from a re-analysis of the deposited data

How the results depend on the processing

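The 5749 genes called by the trend became 2486 with a linear term only, 52 with segment as a factor, and 1686 to 7933 when 1 library was left out (1686 without A, 3719 without C, 3755 without E). The slope of Meg3 was -0.33 to -0.57 with 1 library left out and that of Snhg11 -0.21 to -0.32. With segment as a factor the value is the log2 ratio of F to A, -2.63 and -1.68, and neither passed. Under the other pseudocounts, filters and scalings both stayed past the threshold. The 0 de novo loci became 2301 with a pseudocount of 1 FPKM, 2664 among loci above 0 in every library, 2115 with a linear term only, 10123 with B1 and B2 averaged, 6524 in FPKM times length, and 0 to 7628 with 1 library left out (7628 without B1). The cause was not tested. The slope of Neat1, 0.34, was 0.080 to 0.47 with 1 library left out, the lowest without F. The slopes of the other 2 Rian loci, 0.045 and 0.0039, changed sign without passing. The second became -0.038 by the median of ratios, -0.00080 without the mitochondrial sum and -0.035 (without A) to 0.18 (without F) with 1 library left out. The third became -0.080 and -0.042 under those scalings, -0.61 (ratio) as a factor, -0.041 with B averaged, -0.024 in FPKM times length, and -0.067 to 0.15 with 1 library left out. The share slope of ENSMUST00000021696 (-0.90) was -1.38 without F, and that of ENSMUST00000149303 (-0.74) was -1.17 without F. Both transcripts are listed in A alone, and A alone brought them past the minimum share. Without A their slopes of 0.33 and 0.21 set the pseudocount against the falling gene level and show no change of share. The share slope of ENSMUST00000146701 (-0.03) was -0.13 without A, 0.037 without B1 and 0.0049 without F. None of these slopes was past the threshold. Intervals widened 2 times lowered the mean share of genes without overlap from 59.9% to 39.3%, and classifiable transcripts (widest interval at most 50% of the mean) lowered the genes with opposite isoforms from 5572 to 1387. The r of 0.979 was 0.851 without A and B2. The deposited fraction column, rescaled within the gene, gave other mean shares than FPKM. They were 81.8% for ENSMUST00000146701, 5.59% for ENSMUST00000129245, 0.864% for ENSMUST00000021696 and 1.56% for ENSMUST00000149303. In FPKM they were 55.4%, 24.2%, 4.05% and 2.96%.

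No paired analysis was possible because replicate numbers exist in segment B alone, so no 2 segments share 2 numbers.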
